A study of Mus musculus with 95 samples.

Results

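In mouse E14 embryonic stem cells, 384 of 5454 wild-type RING1B peaks (7.04%) overlapped a wild-type PCGF6 peak by at least 1 bp and overlapped neither a wild-type PCGF1 peak nor a wild-type PCGF2 peak. These 384 regions were chosen from the peak lists themselves, so their lack of PCGF1 and PCGF2 and their PCGF6 peak describe the choice and are not results. Of all RING1B peaks, 828 overlapped a PCGF6 peak, and 444 of those also met a PCGF1 or PCGF2 peak and were left out. The remaining RING1B peaks, used for comparison, were 587 with PCGF1, 2629 with PCGF2 but not PCGF1, and 1854 with no PCGF1, PCGF2 or PCGF6 peak. The wild-type PCGF1 list held 736 peaks and the PCGF2 list 4472, so the absence of such a peak is limited by the depth of those lists. In lists of other lines, a PCGF1 peak of the Ring1a-/-_Ring1bfl line, from a list of 12735, met 52.3% of the regions, and a PCGF2 peak of Pcgf6-/- cells met 18.8%. The length of those lists and a change of binding in those lines cannot be told apart.

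The study profiled chromatin by ChIP-seq and expression by RNA-seq in wild-type E14 cells and in CRISPR/Cas9 knockout clones labelled Pcgf6-/-, Pcgf3/5-/-, Pcgf3/5/6-/-, Pcgf1-/-, Pcgf2/4-/- and Pcgf1/2/4-/-, where Pcgf4 is the gene Bmi1. All of these cells were grown on gelatin in serum with LIF and inhibitors of GSK3β and MEK1/2. The double and triple knockouts were derived from single-knockout clones, and the table of gene counts names 1 clone for each line, while other tables name another clone of Pcgf6-/-, Pcgf3/5-/- or Pcgf1/2/4-/-. In the expression data a line and its clone therefore cannot be told apart. PCGF6 ChIP-seq was also made in cells given lentiviral shRNA after puromycin selection (control shCtr, shE2F6, shMGA, shMGAdHLH and shE2F6-MGAdHLH) and in a conditional Ring1a-/-;Ring1b fl/fl;Rosa26::CreERT2 line before (Ring1a-/-_Ring1bfl) and after (Ring1a/b-/-) loss of Ring1b. RNA-seq had 2 libraries in each of 7 genotypes, and each peak list came from 1 ChIP sample, except that RING1B and H2AK119ub1 in Pcgf1/2/4-/- cells had 2 lists each.

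RING1B is an E3 ligase of Polycomb repressive complex 1 and places ubiquitin on a lysine of histone H2A. Each complex holds one PCGF protein, and the PCGF6 complex also holds the DNA-binding proteins MGA, MAX and E2F6 and, among its reported partners, the WD-repeat protein WDR5. MGA with MAX binds E-boxes, the T-domain of MGA binds T-box sites and E2F6 binds E2F sites. In embryonic stem cells the PCGF6 complex is known for holding genes of germ cells and meiosis silent. SUZ12 belongs to Polycomb repressive complex 2, which places H3K27me3, while H3K4me3 marks active and poised gene starts and USF1 is an E-box binding factor.

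DNA is shown at 6 regions on which the results below turn: Dab2, Plekhg4, Tdrd1 and Slc25a31, whose nearest genes had the largest fold changes in Pcgf6-/- cells among called genes with a mean log2 CPM of at least 1, and Eif5a2 and Zfp280d, the regions with the strongest wild-type PCGF6 peaks. Each is the longest stretch free of untranslated exon bases in the window of 300 bases around the PCGF6 summit (NCBIM37, the build also called mm9, + strand). Capitals mark CACGTG (E-box) or GCGGGAA (E2F) on either strand.
Dab2 chr15:6336393-6336597 (+): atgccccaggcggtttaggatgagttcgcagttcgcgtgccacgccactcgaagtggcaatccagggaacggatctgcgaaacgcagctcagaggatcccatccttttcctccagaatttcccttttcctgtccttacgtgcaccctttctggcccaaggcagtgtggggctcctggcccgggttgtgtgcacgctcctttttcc
Plekhg4 chr8:107898626-107898803 (+): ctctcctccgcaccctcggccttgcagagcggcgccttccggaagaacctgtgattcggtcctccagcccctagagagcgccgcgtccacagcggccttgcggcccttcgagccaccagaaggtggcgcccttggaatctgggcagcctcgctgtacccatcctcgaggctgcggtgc
Tdrd1 chr19:56900579-56900698 (+): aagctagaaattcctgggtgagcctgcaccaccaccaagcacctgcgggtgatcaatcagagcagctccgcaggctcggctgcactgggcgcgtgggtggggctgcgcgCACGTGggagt
Slc25a31 chr3:40512589-40512776 (+): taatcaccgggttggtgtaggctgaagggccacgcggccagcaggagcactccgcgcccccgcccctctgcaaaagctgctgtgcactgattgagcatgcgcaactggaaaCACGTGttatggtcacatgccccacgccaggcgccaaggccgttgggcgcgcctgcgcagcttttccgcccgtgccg
Eif5a2 chr3:28679844-28680143 (+): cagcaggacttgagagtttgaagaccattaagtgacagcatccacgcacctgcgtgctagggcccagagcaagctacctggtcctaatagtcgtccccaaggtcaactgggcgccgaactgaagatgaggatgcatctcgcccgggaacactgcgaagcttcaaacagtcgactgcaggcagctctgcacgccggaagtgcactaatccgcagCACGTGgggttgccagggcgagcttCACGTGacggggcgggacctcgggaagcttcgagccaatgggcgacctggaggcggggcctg
Zfp280d chr9:72122417-72122705 (+): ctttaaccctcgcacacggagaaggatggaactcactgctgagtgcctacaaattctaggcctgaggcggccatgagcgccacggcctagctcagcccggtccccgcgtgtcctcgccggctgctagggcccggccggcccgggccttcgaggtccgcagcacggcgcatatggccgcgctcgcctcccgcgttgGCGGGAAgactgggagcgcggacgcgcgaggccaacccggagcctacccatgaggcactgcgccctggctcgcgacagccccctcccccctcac
The Eif5a2 stretch held 2 E-boxes, Tdrd1 and Slc25a31 held 1 each, Zfp280d held 1 E2F match, and Dab2 and Plekhg4 held no match in the full window. The full window of Slc25a31 also held an E2F match, among the bases not shown.

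For further germ cell genes next to these regions, chosen after their values were seen, 40 bases around 1 match show the same letters in other surroundings.
Mov10l1 chr15:88813161-88813200 (+): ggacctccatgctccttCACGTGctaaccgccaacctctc
Tex12 chr9:50369444-50369483 (+): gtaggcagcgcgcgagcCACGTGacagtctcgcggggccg
Ddx4 chr13:113442312-113442351 (+): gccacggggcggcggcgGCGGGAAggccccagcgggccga
Smc1b chr15:84962412-84962451 (+): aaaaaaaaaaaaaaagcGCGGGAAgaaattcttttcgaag
Stk31 chr6:49345466-49345505 (+): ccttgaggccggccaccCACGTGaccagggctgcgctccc
Sycp2 chr2:178141930-178141969 (+): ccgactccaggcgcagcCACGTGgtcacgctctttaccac
Hormad1 chr3:95363487-95363526 (+): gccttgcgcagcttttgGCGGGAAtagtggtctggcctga
Fkbp6 chr5:135825929-135825968 (+): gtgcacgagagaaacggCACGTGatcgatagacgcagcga
Mov10l1, Tex12, Stk31, Sycp2 and Fkbp6 are shown at an E-box, which reads the same on both strands. Ddx4, Smc1b and Hormad1 are shown at an E2F match on the + strand. Of the 20 germ cell genes of the list described below that lie at these regions, 8 had an E-box in the window, 7 an E2F match, 3 of them both, and 8 had neither.

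Over all 384 regions, CACGTG stood within the 300 bases around the PCGF6 summit in 128 (33.3%, Wilson 95% interval 28.8 to 38.2), GCGGGAA in 64 (16.7%) and the T-box sequence TCACACCT in 10 (2.6%). Both strands were searched, and 0 of the matches shared a base with a neighbouring match. Windows of the same length around all 1868 wild-type PCGF6 peaks held the E-box in 25.9%, the E2F match in 11.2% and the T-box match in 2.57%. Around the RING1B summit, the E-box stood in 30.5% of the regions, against 6.81% of RING1B peaks with PCGF1, 6.62% of those with PCGF2 but not PCGF1 and 7.71% of those with no PCGF1, PCGF2 or PCGF6 peak. The median GC share around the RING1B summit was 65.3% at the regions and 67%, 65% and 62% in those classes. Of the 123 regions that overlapped a wild-type USF1 peak, 89 (72.4%) held an E-box at the PCGF6 summit, compared with 39 of the 261 without USF1 (14.9%). A match is a description of letters and not a bound site.

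The regions were short and of moderate RING1B enrichment. Their RING1B fold enrichment, the authors' own value from the peak caller, ranged from 3.25 to 14.9 with a median of 6.55, and their median width was 567 bp (205 to 2014). RING1B peaks with PCGF1 had a median fold of 18 and a width of 2201 bp, those with PCGF2 but not PCGF1 11.8 and 1437 bp, and those with no PCGF1, PCGF2 or PCGF6 peak 6.1 and 608 bp. The PCGF6 fold enrichment at the regions ran from 3.72 to 30.8 (median 9.6), beside a median of 8.27 over all PCGF6 peaks. The strongest were at Eif5a2 (30.8), a translation factor gene, Zfp280d (29.8), a zinc finger gene, Smc1b (28.4), which encodes a meiotic cohesin subunit, and the centriole gene Cetn3 (26.0).

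The members just inside the rule were regions that shared 9 bp with a PCGF6 peak at Cdc14b, 51 bp at Gm4559 and 92 bp at Cdkn2a, whereas the median overlap was 405 bp. Just outside it, the nearest PCGF6 peak lay 2 bp from the RING1B peak at Iqsec1, 84 bp from that at Psmb9 and 92 bp from that at Rnf219. In all, 34 RING1B peaks with no PCGF1, PCGF2 or PCGF6 peak had a PCGF6 peak within 500 bp, and 5 of the regions had a PCGF1 or PCGF2 peak within that distance. The PCGF6 peak of 19 regions was also called in Pcgf6-/- cells, which should lack the protein, and results without those 19 are among the alternatives.

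Most regions lay at gene starts. An annotated start lay within 2.5 kb of 294 regions (76.6%) and inside 182 of them (47.4%), while 63 lay more than 10 kb from any start. The RING1B summit fell in an exon in 182 regions (47.4%), in an intron in 75 (19.5%) and between genes in 127 (33.1%). A start lay inside 62.9% of RING1B peaks with PCGF1, 51.8% of those with PCGF2 but not PCGF1 and 29.6% of those with no PCGF1, PCGF2 or PCGF6 peak. The 294 regions named 289 different nearest genes, 276 of them protein-coding, and 5 genes had more than 1 region.

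In wild-type cells the regions carried H3K4me3 and WDR5 calls more often than calls of Polycomb repressive complex 2. An H3K4me3 peak overlapped 344 of the 384 (89.6%, 86.1 to 92.3) and a WDR5 peak 276 (71.9%, 67.2 to 76.1). H3K4me3 was called at 98.5% of RING1B peaks with PCGF1, 90.9% of those with PCGF2 but not PCGF1 and 80.9% of those with no PCGF1, PCGF2 or PCGF6 peak. WDR5 peaks overlapped 16.9% of RING1B peaks with PCGF1, 9.24% of those with PCGF2 but not PCGF1 and 3.29% of those with no PCGF1, PCGF2 or PCGF6 peak. Read from the other side, 12.7% of all 2176 WDR5 peaks lay at these 384 regions. Both H3K4me3 and WDR5 were called at 253 regions (65.9%). USF1 peaks overlapped 32% of the regions, against 12.8%, 7.49% and 4.42% in the other classes. A PCGF3 peak, from a list of 223, overlapped 16 regions (4.17%, or 7.17% of that list), compared with 1.87%, 0.685% and 0.108% in the other classes. H3K36me3, which marks transcribed gene bodies, overlapped 1.3%.

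**Figure D1:**
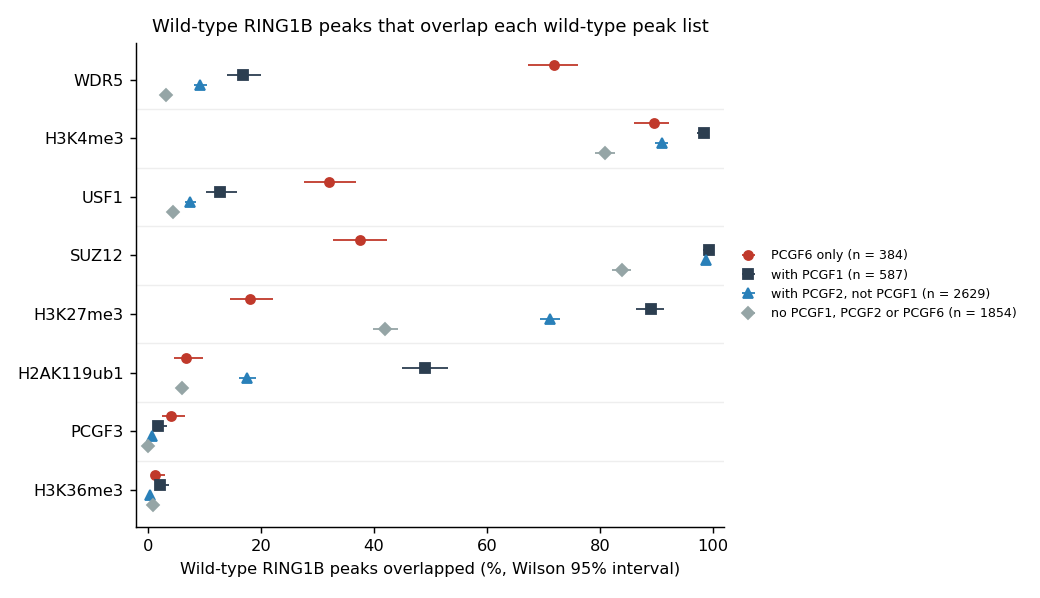
Share of wild-type RING1B peaks (x axis, percent, with Wilson 95% intervals as bars) that overlap a wild-type peak of WDR5, H3K4me3, USF1, SUZ12, H3K27me3, H2AK119ub1, PCGF3 or H3K36me3 (y axis), with points for the 384 regions with PCGF6 only and for the 3 other classes of RING1B peak. The regions stand at 71.9% for WDR5 and 37.5% for SUZ12, while the other classes stand at 3.29 to 16.9% and 83.9 to 99.3%.

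SUZ12 was called at 144 regions (37.5%, 32.8 to 42.4), but at 99.3%, 98.8% and 83.9% of the other classes in the same order. H3K27me3 overlapped 69 regions (18%), against 89.1%, 71.2% and 42%. Neither mark was called at 219 regions (57%), both at 48, and SUZ12 together with H3K4me3 at 139. H2AK119ub1, the product of RING1B, was called at 26 regions (6.77%), against 49.1%, 17.6% and 5.99%. That wild-type list held only 1741 peaks, which limits what a missing call can show. These intervals cover counting error alone, since each list came from 1 ChIP sample.

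RING1B was missing from nearly all of the regions in both lines whose label includes loss of Pcgf6, and stayed in the 4 others. In Pcgf6-/- cells a RING1B peak overlapped 34 regions (8.85%, 6.41 to 12.1), although that list held 5563 peaks. In cells labelled Pcgf3/5/6-/- it overlapped 5 (1.3%, 0.557 to 3.01), from a list of 3068. In contrast, RING1B was called at 88.3% in Pcgf3/5-/- cells (84.7 to 91.1), 87.8% in Pcgf1-/- cells (84.1 to 90.7) and 94.3% in Pcgf2/4-/- cells (91.5 to 96.2). The 2 Pcgf1/2/4-/- lists gave 82% (77.9 to 85.5) and 80.5% (76.2 to 84.1). They agreed at 291 regions with RING1B in both, while 42 regions had RING1B in exactly 1.

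The other RING1B peaks behaved differently in the same lists. RING1B was still called in Pcgf6-/- cells at 95.6% of peaks with PCGF1, 90.2% of peaks with PCGF2 but not PCGF1 and 63.1% of those with no PCGF1, PCGF2 or PCGF6 peak. In cells labelled Pcgf3/5/6-/- those shares were 84.8%, 67.5% and 14.8%. In the first Pcgf1/2/4-/- list they were 42.8%, 24% and 5.34%, so the 384 regions, 7.04% of wild-type RING1B peaks, held 15.4% of the 2051 peaks of that list. In the second they held 17% of 1814.

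**Figure D2:**
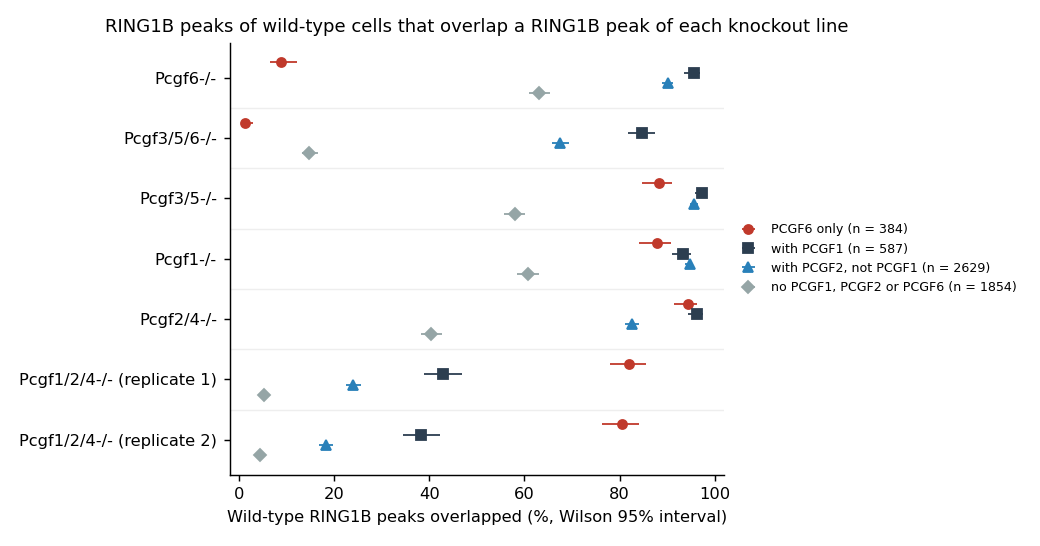
Share of wild-type RING1B peaks (x axis, percent, with Wilson 95% intervals as bars) that overlap a RING1B peak of each knockout list (y axis), with points for the 384 regions with PCGF6 only and the 3 other classes. The regions are at 8.85% in Pcgf6-/- and 1.3% in Pcgf3/5/6-/-, and between 80.5% and 94.3% in the other 5 lists.

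Weak peaks are more easily lost from a list, so the regions were divided into 4 groups by their wild-type RING1B fold and set beside other RING1B peaks of the same fold. Of the weakest group 3.09% and of the strongest 11.5% were still called in Pcgf6-/- cells, against 53.9% and 88.3% of the other peaks. In cells labelled Pcgf3/5/6-/- the share was 0% in the weakest group (0 of 97 regions, an upper bound of 3.81%) and 0% in the strongest (0 of 96, 3.85%), against 10.4% and 57.9%. In Pcgf1/2/4-/- cells the order was the opposite: 82.5% and 88.5% of the regions, against 6.04% and 16.1% of the others.

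Taking the lines together, 349 regions (90.9%) had RING1B in neither Pcgf6-/- nor Pcgf3/5/6-/- cells, 4 in both, 30 in Pcgf6-/- only and 1 in Pcgf3/5/6-/- only. RING1B was called in all of the lines Pcgf3/5-/-, Pcgf1-/-, Pcgf2/4-/- and Pcgf1/2/4-/- (first list) at 271 regions (70.6%), and 256 of these (66.7% of all) lacked it in Pcgf6-/- and Pcgf3/5/6-/- cells. The 5 regions kept in cells labelled Pcgf3/5/6-/- lay nearest 9330159F19Rik, Ankrd35, B4galnt4, Rasa3 and Rbm28. Of those, B4galnt4, which encodes an N-acetylgalactosaminyltransferase, was the region without a RING1B peak in Pcgf6-/- cells (fold 7.19 in wild-type and 5.27 in Pcgf3/5/6-/-). Among the 34 kept in Pcgf6-/- cells, the region 769 bp from the start of Cyp26c1, a retinoic acid hydroxylase gene, went from a fold of 8.14 to 12.8. The PCGF6 peak of that region was also called in Pcgf6-/- cells, which should lack the protein. At Arhgap29 the RING1B fold went from 9.27 to 11.1. At Mov10l1, which encodes an RNA helicase of the piRNA pathway, it went from 7.03 to 5.37, and at Per2, a clock gene, from 8.94 to 5.21. Folds from different lists are not on 1 scale, so these values show presence and not change.

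SUZ12 was also called at fewer of the regions in both lines whose label includes loss of Pcgf6. SUZ12 peaks met 37.5% of the regions in wild-type cells and 10.7% in Pcgf6-/- cells: 110 of the 144 regions had lost the call, 34 kept it and 7 had gained it. In cells labelled Pcgf3/5/6-/- the share was 8.33%, whereas it was 46.4% in Pcgf3/5-/-, 42.2% in Pcgf1-/-, 50% in Pcgf2/4-/- and 34.9% in Pcgf1/2/4-/- cells. The SUZ12 lists were of similar length, from 5364 to 8077 peaks. In the other classes SUZ12 was also called less often: 96.3% in Pcgf6-/- and 95.1% in Pcgf3/5/6-/- with PCGF1, from 99.3% in wild-type. With PCGF2 but not PCGF1 it went from 98.8% to 91.1% and 88.6%. With no PCGF1, PCGF2 or PCGF6 peak it went from 83.9% to 69.8% and 55.5%. H3K27me3 met 18% in wild-type, 4.95% in Pcgf6-/- and 10.9% in Pcgf3/5/6-/- cells, beside 46.1% in Pcgf3/5-/-, 46.9% in Pcgf1-/-, 62% in Pcgf2/4-/- and 9.38% in Pcgf1/2/4-/- cells. In the other classes, in the same order, H3K27me3 met 89.1%, 71.2% and 42% in wild-type and 83.5%, 63.1% and 37.2% in Pcgf6-/- cells. In Pcgf3/5/6-/- cells it met 93.5%, 87.9% and 63.6%. The H3K27me3 lists ranged from 3918 to 112110 peaks, and their length cannot be told apart from a change of the mark.

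H3K4me3 calls were more numerous in Pcgf6-/- cells than in wild-type cells, at the regions and in the other classes. H3K4me3 was called at 380 regions (99%, 97.4 to 99.6), at 36 of the 40 regions that lacked it in wild-type cells, and was lost at 0. In the other classes the share went from 98.5% to 99.5% with PCGF1, from 90.9% to 95.1% with PCGF2 but not PCGF1 and from 80.9% to 86.9% with no PCGF1, PCGF2 or PCGF6 peak. New calls at the regions numbered 4 in Pcgf1-/-, 7 in Pcgf2/4-/- and 6 in Pcgf3/5-/- cells, from lists of 41525 to 47619 peaks beside 45285 in Pcgf6-/-. The 36 lay nearest genes that include 6 of the germ cell list: Ddx4, Slc25a31, Spata22, Spo11, Sycp2 and Tex12. Among the others, named after their values were seen, were Syce3, a further synaptonemal complex gene, Adad2, an adenosine deaminase domain gene of the testis, and Hsf5, a heat shock factor gene of the testis. H3K4me3 in cells labelled Pcgf3/5/6-/- was not analysed here.

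H2AK119ub1 calls at the regions ranged from 1.3% in Pcgf6-/- cells (list of 5287 peaks) through 6.77% in wild-type and 6.77 to 7.29% in the 2 Pcgf1/2/4-/- lists to 28.4% in Pcgf1-/-, 30.7% in Pcgf3/5/6-/-, 63.8% in Pcgf2/4-/- and 97.7% in Pcgf3/5-/- cells. The lists held from 1070 to 128786 peaks, and the 2 highest shares came from the 2 longest lists, so no change of the mark was read from these shares. The Pcgf6-/- list was longer than the wild-type list of 1741 and still met fewer regions.

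PCGF6 itself was called at most of the regions in the lines labelled for loss of other PCGF proteins, and at fewer of them after shRNA to E2F6 or MGA. All 384 regions met a PCGF6 peak in shCtr cells (7451 peaks) and in Pcgf2/4-/- cells (12842 peaks), 95.8% did in Pcgf1-/- and 74.2% in Pcgf3/5-/- cells. The median authors' fold at those calls was 14.2, 23.4, 14.4 and 9.23, beside 9.6 in wild-type. In the conditional line the share was 72.4% before loss of Ring1b (2222 peaks) and 47.4% after it in Ring1a/b-/- cells (1642 peaks). After shE2F6 the share was 45.1%, and the regions then held 31.4% of all 557 remaining PCGF6 peaks, compared with 5.13% of the shCtr list. It was 25.3% after shMGAdHLH (13.4% of 733 peaks), 7.81% after both and 1.56% after shMGA (1.28% of 468 peaks). It was 4.95% in Pcgf6-/- cells (1042 peaks), which should lack the protein. Regions that kept a PCGF6 call after shE2F6 held an E-box in 42.2% and an E2F match in 19.7%, and those that did not in 26.1% and 14.2%.

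**Figure D3:**
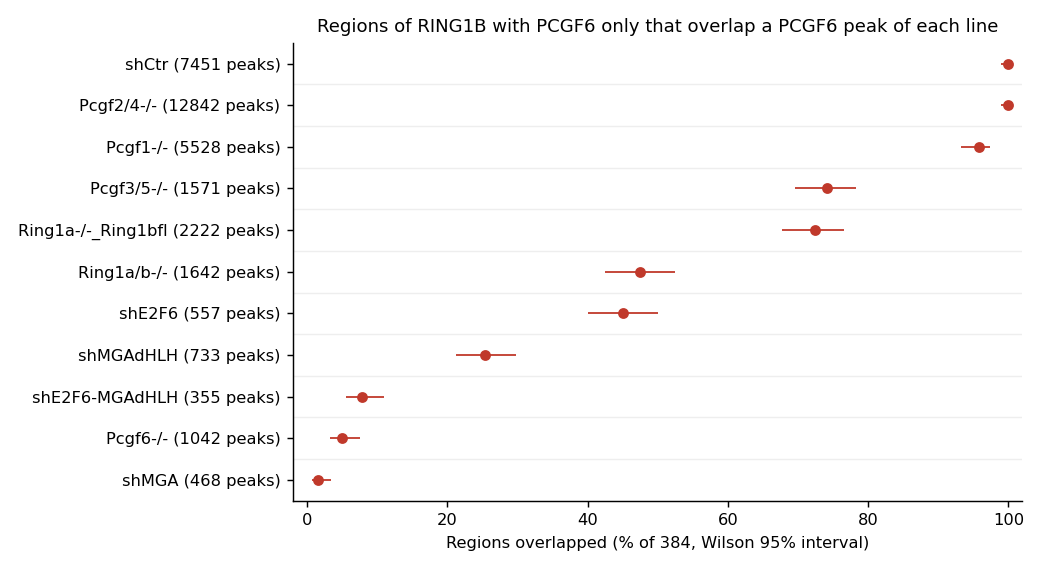
Share of the 384 regions (x axis, percent, with Wilson 95% intervals as bars) that overlap a PCGF6 peak of each line or shRNA sample (y axis, with the length of its peak list). The share runs from 100% in shCtr and Pcgf2/4-/- cells through 45.1% after shE2F6 to 1.56% after shMGA.

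Expression was read at the 289 nearest genes with a start within 2.5 kb, of which 271 had enough counts to be tested and 18 did not. Totals were 2147968 to 7848161 counts per library. In every knockout comparison the same 2 wild-type libraries served as the control. These agreed within sampling noise (chi-square per degree of freedom 0.958, against 1.18 to 19.5 for the other pairs), so they may be 1 library deposited under 2 names. They were kept as 2 in the design used here, and the main counts are given also with their counts summed to 1 sample. Nothing states that replicates were separate cultures, so p-values measure the spread between these libraries, and with 2 libraries against 2 an exact permutation test cannot go below p = 0.333. The targeted genes were checked first: Pcgf6 was at 36.2 and 34.3 CPM (gene counts scaled to a common library size) in wild-type, 0 and 0 in Pcgf6-/-, and 42.0 and 37.1 in the libraries labelled Pcgf3/5/6-/-. Thus its mRNA was not lower in the latter, and a gene count does not test a small edit. Pcgf1 fell from 66 and 61 to 4.81 and 3.20 CPM in Pcgf1-/- and was at 0.534 and 0.903 in Pcgf1/2/4-/-. Pcgf5 went from 13 and 10.8 to 5.48 and 4.6 in Pcgf3/5-/-, where it was called lower, and was at 16.4 and 13.5 in Pcgf3/5/6-/-. It was similarly low in lines not labelled for it, at 5.35 and 4.11 in Pcgf1-/- and 3.77 and 5.87 in Pcgf2/4-/-. In Pcgf1/2/4-/- it was at 12.3 and 13.1 and in Pcgf6-/- at 40.3 and 44.2. Its fall in Pcgf3/5-/- therefore does not check that label. Pcgf3 (16.4 and 15.5 in wild-type) was at 11.4 and 12.8 in Pcgf3/5-/- and 13.6 and 13.5 in Pcgf3/5/6-/-, and did not pass the test in either. Pcgf2 (42.9 and 48.9) was at 41 and 54.8 in Pcgf2/4-/- and 57.1 and 56.9 in Pcgf1/2/4-/-, and Bmi1 (16.1 and 14.2) at 12.1 and 14 and at 13.9 and 19.9, with no call for either gene. So the mRNA of several genes named in the labels was not shown to be lower in those lines.

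Nearest genes were raised more often than genes in general in both lines without RING1B at the regions. In Pcgf6-/- cells 151 of the 271 tested genes were raised and 28 lowered by edgeR's quasi-likelihood test at an adjusted p below 0.05. Over all 15464 genes tested, 27.8% were raised and 18.6% lowered, compared with 55.7% and 10.3% of the nearest genes. The median log2 fold change was 0.64 at the nearest genes and 0.03 over all genes. In the libraries labelled Pcgf3/5/6-/-, 142 were raised and 41 lowered (52.4% and 15.1%), beside 28% and 25.3% of all genes, with medians of 0.57 and 0.05. With the wild-type pair summed to 1 sample the counts were 135 and 23 in Pcgf6-/- (24.4% and 14.2% of all genes) and 130 and 33 in Pcgf3/5/6-/- (25% and 21%).

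Genes low in wild-type cells passed the filter on counts only through the lines in which they were high. Of the 271, 234 were at or above the filter's 1.73 CPM in both wild-type libraries, and 121 of them were raised and 28 lowered in Pcgf6-/- cells, with 111 and 41 in Pcgf3/5/6-/-. The other 37 gave 30 and 31 of the raised calls and 0 lowered ones. Tdrd1, Sycp2, Dab2, Plekhg4, Tram1l1, Smpdl3a and Slc36a4, named below, are among the 37. Their calls and p-values are therefore no independent evidence of direction.

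Genes nearest to other RING1B peaks were also raised often, so a high share of raised genes was not particular to these regions. In Pcgf6-/- cells, where most of those peaks kept RING1B, 33.2% of tested genes at peaks with PCGF1 were raised, 49.4% at those with PCGF2 but not PCGF1 and 43.8% at those with no PCGF1, PCGF2 or PCGF6 peak. In Pcgf3/5/6-/- the shares of tested genes were 55.7%, 61.5% and 55.9%, all above the 52.4% at the regions. As a share of all nearest genes, tested or not, 52.2% of those at the regions were raised in Pcgf6-/- cells. The other classes, which held more genes too low to test, had 21.7%, 33.6% and 33.1%. In Pcgf3/5/6-/- that share was 49.1% at the regions, against 36.4%, 41.7% and 42.2%, the reverse of the order among tested genes.

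In the 4 lines that keep RING1B at most regions the share of raised nearest genes was closer, in percentage points, to that of all genes. A link to the kept RING1B was not tested. In Pcgf3/5-/- cells 52 were raised and 30 lowered (19.2% and 11.1%), beside 11.1% and 10.4% of all genes. In Pcgf1-/- cells 50 were raised and 63 lowered (18.5% and 23.2%), beside 13.9% and 18.4%. In Pcgf2/4-/- cells 21 were raised and 59 lowered (7.75% and 21.8%), beside 8.1% and 13.5%. In Pcgf1/2/4-/- cells 32 were raised and 74 lowered (11.8% and 27.3%), beside 14.4% and 22.6% of all genes. This split depended on the scaling: 45 and 63 with RLE size factors, 60 and 65 with loess offsets and 48 and 60 with DESeq2. Under these the median of all genes moved from -0.11 to -0.02, -0.04 and 0.00 on the log2 scale. The shares in Pcgf3/5-/- and Pcgf2/4-/- cells were not particular to the regions. Of genes at peaks with PCGF1, with PCGF2 but not PCGF1 and with none, 16.9%, 19.2% and 19.7% were raised in Pcgf3/5-/-. In Pcgf2/4-/- 25.1%, 23.3% and 26.2% of them were lowered, and in Pcgf1/2/4-/- 11.4%, 13.4% and 19.2%. Tested directly, the libraries labelled Pcgf3/5/6-/- were higher than Pcgf6-/- at 41 nearest genes (15.1%) and lower at 71 (26.2%). Over all genes tested the shares were 19% and 27%, so neither share at the regions was above that of all genes. With loess offsets the counts at the nearest genes were 68 and 77. Single libraries moved these counts by more than 1.5 times. Raised genes ranged from 24 to 38 in Pcgf3/5-/- and from 24 to 50 in Pcgf1-/- (lowest without the first library of the line or without 1 wild-type library), from 9 to 33 in Pcgf2/4-/- (lowest without the second wild-type library, highest without the first Pcgf2/4-/- library) and from 18 to 21 in Pcgf1/2/4-/- (without any 1 library). Between the lines labelled Pcgf3/5/6-/- and Pcgf6-/-, the count of higher genes was 25 without the second Pcgf3/5/6-/- library and that of lower genes 47 without the first.

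**Figure D4:**
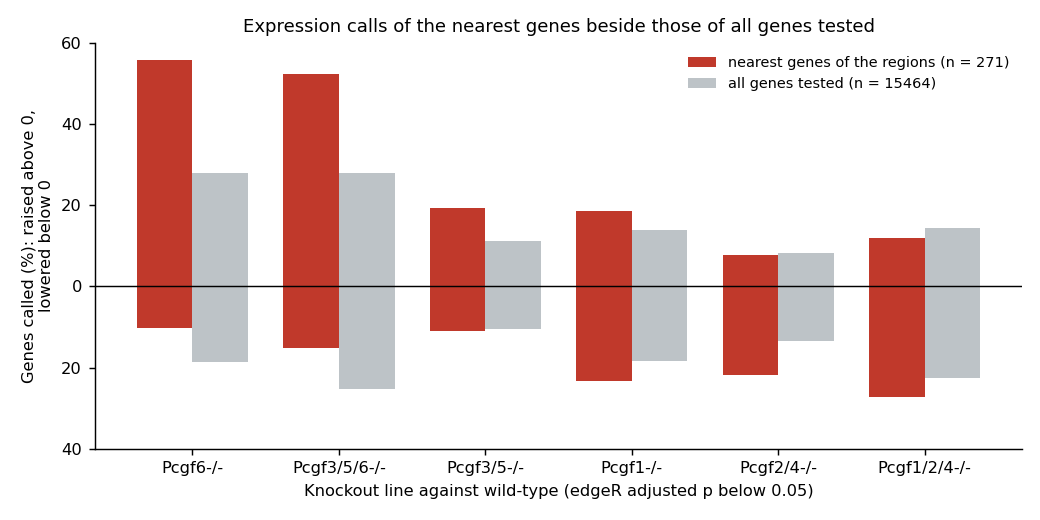
Percent of tested genes called raised (above 0) and lowered (below 0) in each knockout line against wild-type (x axis) by edgeR at an adjusted p below 0.05, for the 271 nearest genes of the regions (red) and all 15464 genes tested (grey). The red bar for raised genes stands at 55.7% in Pcgf6-/- and 52.4% in Pcgf3/5/6-/-, with grey bars at 27.8% and 28%.

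Calls were more frequent at regions with SUZ12 in wild-type cells. Of 97 tested genes at such regions, 72 were raised in Pcgf6-/- cells (74.2%) and 7 lowered, against 79 of 174 raised (45.4%) and 21 lowered at regions without SUZ12. In Pcgf3/5/6-/- the raised genes were 67 of 97 and 75 of 174. This difference between the groups of regions was not tested. At regions that kept a RING1B peak in Pcgf6-/- cells, 7 of 16 tested genes were raised there, and at the others 144 of 255.

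Most genes of germ cells and meiosis next to the regions were raised in both Pcgf6-/- cells and the libraries labelled Pcgf3/5/6-/-. Of the germ cell list, which was partly known from earlier results of these data and is no independent evidence of direction, 20 genes were nearest to a region and 19 were tested. In Pcgf6-/- cells 17 were raised and 0 lowered, with a median log2 fold change of 3.85, and in Pcgf3/5/6-/- 15 were raised and 0 lowered (median 3.14). Over all genes tested, 27.8% were raised and 18.6% lowered in the former and 28% and 25.3% in the latter. The list counts were 10 raised and 2 lowered in Pcgf3/5-/- (11.1% and 10.4% of all genes), 3 and 5 in Pcgf1-/- (13.9% and 18.4%), 2 and 7 in Pcgf2/4-/- (8.1% and 13.5%), and 1 and 6 in Pcgf1/2/4-/- cells (14.4% and 22.6%). The rise was not limited to these regions: of 26 tested list genes with no wild-type RING1B peak near the start, 21 were raised in Pcgf6-/- cells and 1 was lowered.

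**Figure D5:**
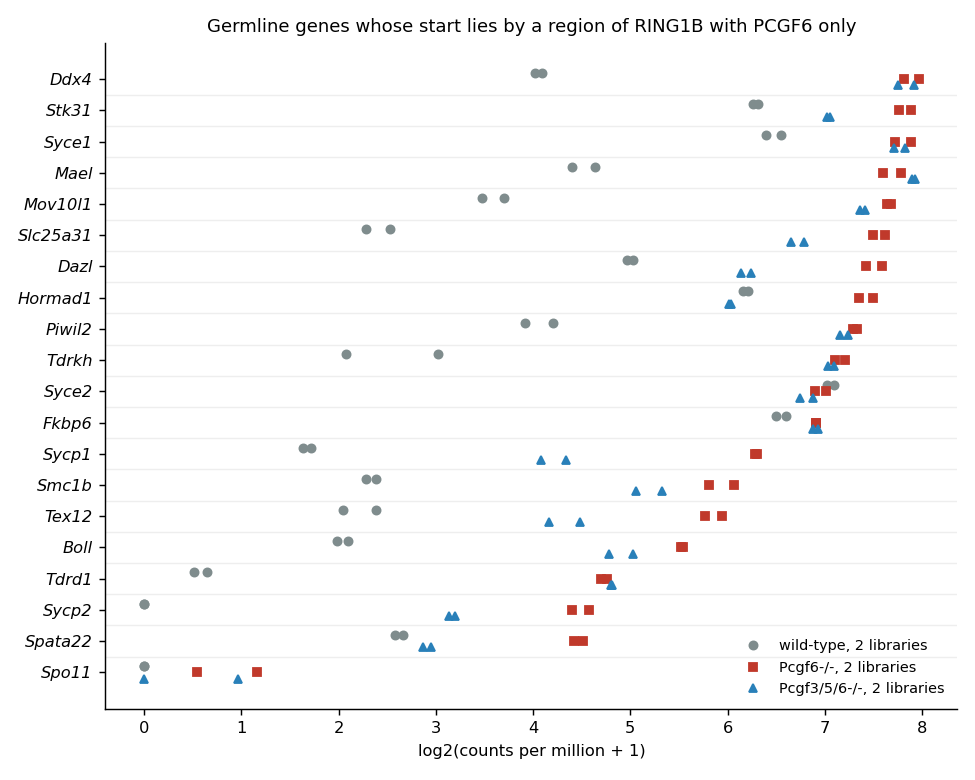
Expression of the 20 germ cell genes nearest to a region (y axis) as log2(CPM + 1) in each library (x axis), with grey circles for wild-type, red squares for Pcgf6-/- and blue triangles for Pcgf3/5/6-/-. Red squares lie right of the grey circles for the 17 raised genes, and for Hormad1 and Spata22 the blue triangles lie near the grey.

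Several of these encode proteins of the piRNA pathway, which silences transposons in germ cells. Tdrd1, a tudor domain gene (chromosome 19, 56900699 to 56944502, NCBIM37), was at 0.428 and 0.562 CPM in wild-type, 26.1 and 24.9 in Pcgf6-/- and 26.8 and 27 in Pcgf3/5/6-/-. The log2 fold change was 5.62 (SE 0.31, edgeR adjusted p = 5.86e-09) in Pcgf6-/- and 5.70 (SE 0.33, adjusted p = 1.14e-08) in Pcgf3/5/6-/-. Tdrd1 was under the filter's 1.73 CPM in wild-type, so it was tested only through the lines in which it was high. Tdrkh, another tudor domain gene, went from 7.13 and 3.23 to 137 and 147 and to 130 and 136 CPM. Mov10l1 went from 12 and 10.1 to 198 and 204 and to 169 and 164, although its region kept a RING1B peak in Pcgf6-/- cells. Ddx4, the Vasa helicase gene that marks the germ line, went from 16.1 and 15.2 to 224 and 249 and to 240 and 215. These groups did not overlap at any of the 3 genes.

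Mael and Piwil2, both also of the piRNA pathway, differed in Pcgf3/5-/- cells, where the regions kept PCGF6 in most cases. Mael was at 20.1 and 23.9 CPM in wild-type, 193 and 220 in Pcgf6-/-, 237 and 243 in Pcgf3/5/6-/- and 5.48 and 5.17 in Pcgf3/5-/-. Mael was also below both wild-type libraries in Pcgf1-/- (7.43 and 6.17), Pcgf2/4-/- (12.6 and 15.2) and Pcgf1/2/4-/- (10.1 and 14.4), so its fall was not particular to Pcgf3/5-/-. It thus rose in the first pair of lines (log2 3.23 and 3.45) and fell in Pcgf3/5-/- by 2.04 on the log2 scale (SE 0.18, edgeR adjusted p = 3.05e-06). Piwil2, a PIWI gene, was at 17.5 and 14.1 in wild-type, 156 and 160 in Pcgf6-/-, 150 and 142 in Pcgf3/5/6-/- and 70.5 and 65.9 in Pcgf3/5-/-. There it rose (log2 2.11, SE 0.14, edgeR adjusted p = 4.48e-07), with all 6 of these knockout libraries above both controls. Piwil2 was at 14.1 and 11 CPM in Pcgf1-/-, 11.3 and 15.3 in Pcgf2/4-/- and 2.13 and 4.06 in Pcgf1/2/4-/-.

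Genes of the synaptonemal complex, which joins homologous chromosomes in meiosis, were higher in Pcgf6-/- than in Pcgf3/5/6-/- cells in several cases. Sycp1, its transverse filament, was at 2.28 and 2.11 CPM in wild-type, 76.7 and 77.9 in Pcgf6-/- and 19.2 and 15.9 in Pcgf3/5/6-/-. The difference between the knockout lines was -2.13 on the log2 scale (SE 0.22, edgeR adjusted p = 5.97e-06), and their libraries did not overlap. Sycp2, of the axial element, had 0 counts in both wild-type libraries, 20.1 and 22.8 CPM in Pcgf6-/- and 8.20 and 7.76 in Pcgf3/5/6-/-. Against a floor of 3 counts over the wild-type group it was at least 101-fold and 37.6-fold higher. Tex12, of the central element, stood at 3.14 and 4.22, then 53.6 and 60.6, then 21.4 and 16.9.

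The meiotic axis gene Hormad1 was raised in Pcgf6-/- cells only of that pair of lines. It was at 70.4 and 73.1 CPM in wild-type, 162 and 180 in Pcgf6-/- and 63.7 and 64.8 in Pcgf3/5/6-/-. The Pcgf3/5/6-/- libraries lay below both Pcgf6-/- libraries (log2 difference -1.41, SE 0.16, edgeR adjusted p = 1.07e-05). Spata22, a meiotic recombination gene, showed the same order, with 4.99 and 5.34, then 20.4 and 21.9, then 6.31 and 6.75 CPM (difference -1.69, SE 0.21, adjusted p = 2.87e-05). Syce1, another central element gene, was raised in both lines (log2 1.34 and 1.30). Syce2, also of the central element, did not pass the test, with 129 and 136 CPM in wild-type, 118 and 128 in Pcgf6-/- and 106 and 117 in Pcgf3/5/6-/-.

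The remaining germ cell genes showed a similar range. Slc25a31, the ADP/ATP carrier of the testis, was at 3.85 and 4.78 CPM in wild-type, 180 and 196 in Pcgf6-/- and 109 and 99.5 in Pcgf3/5/6-/- (log2 5.44, SE 0.18, and 4.59, SE 0.18, edgeR adjusted p = 1.14e-10 and 5.68e-10). Its region gained an H3K4me3 call in Pcgf6-/- cells. Smc1b rose 14.9-fold and 8.79-fold, and 4.3-fold in Pcgf3/5-/- cells. Boll, an RNA-binding gene of the DAZ family, rose 14.5-fold and 9.28-fold, Dazl of the same family 5.86-fold and 2.33-fold, and the kinase gene Stk31 2.93-fold and 1.69-fold. Stk31 (78.7 and 75.5 CPM in wild-type) was also higher in Pcgf1/2/4-/- (237 and 255), Pcgf3/5-/- (112 and 118) and Pcgf1-/- (106 and 123). In Pcgf2/4-/- it was at 78.7 and 89 CPM. Fkbp6, an immunophilin gene of the piRNA pathway, did not pass the test in either line (96.2 and 89.7 CPM in wild-type, 1.28-fold in each), with adjusted p = 0.0846 and 0.0845 by edgeR, but was called with loess normalization or DESeq2. Spo11, which makes the breaks that start meiotic recombination, had 0 counts in wild-type and at most 1.24 CPM elsewhere and was not tested.

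Outside the germ cell list, Dab2 and Plekhg4 were among those with the largest values. Dab2, an endocytic adaptor gene that marks primitive endoderm (chromosome 15, 6249788 to 6390712), had 0 counts in both wild-type libraries, 42.4 and 38.4 CPM in Pcgf6-/- and 40.7 and 50.6 in Pcgf3/5/6-/-. Against a floor of 3 counts over the wild-type group it was at least 190-fold and 215-fold higher (edgeR adjusted p = 1.92e-08 and 2.46e-08). Dab2 also passed the filter on counts only through the lines in which it was high. It was at 9.60 and 11.3 in Pcgf1/2/4-/-, 0.801 and 0.958 in Pcgf3/5-/- and 0 and 1.92 in Pcgf2/4-/- cells. Dab2 was the primitive endoderm gene nearest to a region among 10 on that list, of which 4 of 7 tested were raised in Pcgf6-/- cells, and 5 raised and 1 lowered in Pcgf3/5/6-/-. The summed level of the 10 was 91.2 to 100.5 CPM in wild-type, 291.2 to 304.0 in Pcgf6-/- and 332.8 to 334.4 in Pcgf3/5/6-/-, and Gata4, Gata6, Sox17, Foxa2 and Dab2 were at 0 in wild-type only among these 3 genotypes. The summed level of 9 trophoblast genes was 267.0 to 283.8, 506.4 to 520.1 and 1405.0 to 1435.7 CPM in the same order. The part of such cells in these results was not tested, and in bulk libraries more cells of a type and more RNA per cell cannot be told apart.

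Plekhg4 was at 0 and 0.422 CPM in wild-type, 18.8 and 15.3 in Pcgf6-/- and 23.3 and 24.3 in Pcgf3/5/6-/-. The log2 fold change was 6.19 (SE 0.45, edgeR adjusted p = 8.86e-08) and 6.66 (SE 0.46, adjusted p = 6.06e-08). Plekhg4 was under the filter's 1.73 CPM in wild-type, so it was tested only through the lines in which it was high. It was also raised in Pcgf1-/- (3.39 and 2.74 CPM), Pcgf3/5-/- (2 and 2.11) and Pcgf1/2/4-/- (2.13 and 4.96), and was at 0.419 and 0.638 in Pcgf2/4-/-. Tram1l1 rose 42.1-fold in Pcgf6-/- and 20.4-fold in Pcgf3/5/6-/-, and Smpdl3a, a phosphodiesterase gene of the sphingomyelinase family, 41.2-fold and 26.1-fold. Rhox13, a homeobox gene of the X-linked Rhox cluster, was at 17.4 and 15.7 CPM in wild-type. It was higher in Pcgf6-/- (151 and 169), Pcgf3/5/6-/- (195 and 211) and Pcgf3/5-/- (47.3 and 49.2). In Pcgf1-/- (7.65 and 4.34), Pcgf2/4-/- (10.9 and 10.3) and Pcgf1/2/4-/- (8.54 and 14.9) it was below both wild-type libraries.

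Fewer of the nearest genes fell. Vim, the intermediate filament gene, was at 210 and 222 CPM in wild-type, 81.3 and 79.4 in Pcgf6-/- and 75.7 and 75.9 in Pcgf3/5/6-/-. It fell by 1.43 (SE 0.15, edgeR adjusted p = 2.26e-06) and by 1.51 on the log2 scale (SE 0.15, adjusted p = 1.85e-06), with no overlap of libraries. Zfp36l1, an mRNA decay factor gene whose region kept RING1B in Pcgf6-/- cells, fell by 1.38 and 1.53. Ssbp4, a single-stranded DNA-binding protein gene, fell by 2.18 in Pcgf6-/- and, with its call lost when the first Pcgf3/5/6-/- library was left out, by 1.44 in Pcgf3/5/6-/-. Gtf2ird2 fell in Pcgf6-/- cells by 1.68, 4930432K21Rik by 1.5 and the kinase gene Bmp2k by 1.38.

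A few genes differed between lines, and their low levels were not limited to the line first named. Trpm1, a cation channel gene of melanocytes and retina, was at 110 and 114 CPM in wild-type, 104 and 105 in Pcgf6-/- and 35.3 and 30.4 in Pcgf3/5/6-/-. It fell by 1.77 in Pcgf3/5/6-/- cells (SE 0.17, edgeR adjusted p = 1.60e-06) and did not pass the test in Pcgf6-/- (adjusted p = 0.642). Trpm1 was also below wild-type in Pcgf1-/- (56.5 and 46.8 CPM) and Pcgf1/2/4-/- (12.8 and 14.9). In Pcgf3/5-/- (169 and 194) and Pcgf2/4-/- (255 and 180) it was above wild-type. B4galnt4, whose region kept RING1B in Pcgf3/5/6-/- cells, went from 17.8 and 21.5 to 4.42 and 8.77 CPM there, a fall by 1.58 that lost its call without the first Pcgf3/5/6-/- library. B4galnt4 was also below both wild-type libraries in Pcgf6-/- (12.6 and 10.4 CPM) and Pcgf1/2/4-/- (7.47 and 6.32). Neto2, an auxiliary subunit gene of kainate receptors, was raised in Pcgf6-/- (4.28 and 4.22 CPM to 21.3 and 18.7) and fell by 5.14 in Pcgf2/4-/- (0 and 0.128 CPM). Its level was also low in Pcgf1-/- (0.874 and 0), Pcgf1/2/4-/- (0 and 0) and Pcgf3/5-/- (1.87 and 0.958). In Pcgf3/5/6-/- it was at 13.6 and 12.8 CPM. Slc36a4, an amino acid transporter gene, was at 1.57 and 1.26 CPM in wild-type, 10.4 and 9.64 in Pcgf6-/- and 0 and 0 in Pcgf1-/-. It was at 0.534 and 0.192 CPM in Pcgf3/5-/- and 9.15 and 9.79 in Pcgf3/5/6-/-.

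The nearest genes of the strongest PCGF6 peaks differed in direction and size: Smc1b, above, rose 14.9-fold in Pcgf6-/- cells. Eif5a2 went from 73.4 and 66.9 CPM to 96.7 and 96.7 in Pcgf6-/- (log2 0.46, SE 0.10, edgeR adjusted p = 0.00202) and to 74.4 and 69.5 in Pcgf3/5/6-/-. Zfp280d went from 85.0 and 78.0 to 60.4 and 64.1 and to 40.7 and 45.9, a fall by 0.39 and 0.91 in which the first call was lost without 1 library. Cetn3 did not pass the test in either line, while Sec1, a fucosyltransferase gene, rose 2.73-fold and 3.69-fold. E2f6, the gene of a subunit of the complex itself, carries one of the regions and went from 12.8 and 13.6 CPM to 20.9 and 20.2 in Pcgf6-/- (log2 0.64, SE 0.22, adjusted p = 0.0258), a call lost when any 1 library was left out. Whether the deposited counts used strand is not given in the sources used here, so Plekhg4, Smc1b, Stk31, Syce2, Boll, Eif5a2, Zfp280d, Cetn3, Sec1, Bmp2k, Gtf2ird2, Zfp36l1, Pcgf5 and Dab2, which overlap a gene on the opposite strand, cannot be told apart from it.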

How the data were processed

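The authors deposited whole-number counts per gene in 1 table (2 libraries in each of 7 genotypes) and, per ChIP sample, a peak list with fold enrichment (a ratio, per the file headers) and −log10 p- and q-values from the peak caller. The submitters' processing notes name TopHat2 2.1.1, Bowtie 1.2.2, Picard 1.62, HTSeq 0.7.2, DESeq2 3.7, MACS2 2.1.1 and mm9, with no roles. Peaks were called per sample, per the file headers, and every listed peak had a −log10 p of at least 10.

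RING1B peaks were joined to other lists at an overlap of at least 1 bp, and genes were named by the nearest start in the NCBIM37 annotation. Chromosome names agreed, and only the mitochondrial genome had a peak end past the reference length. Summit windows of 300 bases were read from the same build. Intervals are Wilson 95% and cover counting error only. Counts (0 percent of them without a gene name) were filtered, scaled with TMM and fitted with edgeR 4.0.16 (quasi-likelihood, all 14 libraries, R 4.3.3) in 8 comparisons. P-values were adjusted by Benjamini-Hochberg over the 15464 genes tested of 23377, and the scripts were tested on simulated counts. Alternatives were RLE and loess scaling, DESeq2 1.42.0, no filter, other region rules, a replicate block and leaving out each library.

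Named genes were, per line, those with the largest changes among the called ones with a mean log2 CPM of at least 1, the genes of the germ cell list, the strongest PCGF6 peaks, the targeted genes and those called in opposite directions. The regions and lists were chosen with earlier results of these data known. A fold against a group at 0 counts is a lower bound at 3 counts over that group. The embryonic stem cell list (18 genes, 3 raised and 4 lowered in Pcgf6-/-, 4 and 7 in Pcgf3/5/6-/-), the trophoblast list (9 genes; 6 and 2, 7 and 2) and the developmental regulator list (10 of 16 tested; 3 and 3, 4 and 1) had 0 genes at the regions. The PCGF6 complex list (15 genes; 3 and 3, 2 and 1) had 1, E2f6.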

Additional observations from a re-analysis of the deposited data

Results flagged for a closer look

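At 5 nearest genes the calls in Pcgf6-/- and in the libraries labelled Pcgf3/5/6-/- went in opposite directions. EdgeR's test of the difference itself (Pcgf3/5/6-/- minus Pcgf6-/-, adjusted over all genes) passed at each. Opposite calls were not counted over all genes, so whether 5 is an unusual number was not tested. All 5 regions lacked a RING1B peak in both lines. Erap1, which encodes an aminopeptidase that trims peptides for antigen presentation, was at 9.12 and 7.73 CPM in wild-type. It was at 2.73 and 3.67 in Pcgf6-/- and 18 and 18.9 in Pcgf3/5/6-/-, a log2 difference of 2.53 (SE 0.31, edgeR adjusted p = 2.12e-05). Erap1 was also below both wild-type libraries in Pcgf3/5-/- (6.28 and 6.13), Pcgf1-/- (3.6 and 2.51), Pcgf2/4-/- (1.67 and 5.49) and Pcgf1/2/4-/- (2.13 and 2.26). Its low level was therefore not particular to Pcgf6-/-. Fam195b was at 25.1 and 28.8, then 15.7 and 12.8, then 44.8 and 43.9 CPM, a difference of 1.63. Atic, a gene of purine synthesis, was at 99.5 and 97.4, then 73.6 and 70.1, then 158 and 158, a difference of 1.14. Dhx40, an RNA helicase gene, went the other way, with 102 and 103, then 125 and 128, then 59.6 and 62.8, a difference of -1.05, although its Pcgf6-/- call was lost when 1 library was left out. Ppm1a, a protein phosphatase gene, was at 75.3 and 71.3, then 94.4 and 99.6, then 59.0 and 59.4, a difference of -0.71, and its Pcgf3/5/6-/- call was lost with DESeq2 or loess scaling. The lines share the wild-type libraries as control and each is 1 clone in the table of gene counts, so line and clone cannot be told apart.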

How the results depend on the processing

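Of 280 recomputed counts of nearest genes, 207 stayed within 1.5 times the reported value. Raised genes in Pcgf6-/- and in Pcgf3/5/6-/- left that range only in the 2 smaller sets of regions, which hold fewer genes by construction. For the 54 regions with RING1B at or above the median q, raised and lowered genes were 30 and 5 in Pcgf6-/-, 24 and 6 in Pcgf3/5/6-/-, 9 and 5 in Pcgf3/5-/-, 7 and 10 in Pcgf1-/-, 7 and 6 in Pcgf2/4-/-, 1 and 13 in Pcgf1/2/4-/-, and 2 higher and 15 lower in Pcgf3/5/6-/- than in Pcgf6-/-. For the 162 regions with no PCGF1 or PCGF2 peak in 2 further lines they were 65 and 10, 61 and 23, 25 and 14, 23 and 27, 9 and 22, 13 and 36, and 14 and 36 in the same order. Requiring an absolute log2 fold change over 1 left 10 lowered in Pcgf6-/-, 10 lowered in Pcgf3/5/6-/-, 22 and 14 in Pcgf3/5-/-, 27 and 37 in Pcgf1-/-, 28 lowered in Pcgf2/4-/-, 12 and 41 in Pcgf1/2/4-/-, and 21 higher and 24 lower between the 2 lines.

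A fit of only the 2 genotypes compared gave 44 lowered in Pcgf6-/-, 5 raised and 16 lowered in Pcgf2/4-/-, 60 raised in Pcgf1/2/4-/- and 77 higher in Pcgf3/5/6-/- than in Pcgf6-/-. Loess offsets gave 32 raised in Pcgf2/4-/-, 60 raised in Pcgf1/2/4-/- and 68 higher between the 2 lines. Summing the wild-type pair gave 19 lowered in Pcgf3/5-/- and 19 raised in Pcgf1/2/4-/-. For these settings the cause was not tested.

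Leaving out 1 library each gave 126 to 138 raised and 20 to 23 lowered in Pcgf6-/-, 123 to 126 and 32 to 36 in Pcgf3/5/6-/-, 24 to 38 and 14 to 21 in Pcgf3/5-/-, 24 to 50 and 41 to 46 in Pcgf1-/-, 9 to 33 and 37 to 62 in Pcgf2/4-/-, 18 to 21 and 37 to 55 in Pcgf1/2/4-/-, and 25 to 28 higher and 47 to 56 lower between the 2 lines. A group left with 1 library was assumed to vary like the others.

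Replicate numbers did not pair the libraries: correlations of same-numbered deviations ran from -0.462 to 0.375 over 21 pairs of genotypes, 3 of them over 0.1. With the replicate number as a block, 146 genes were raised and 26 lowered in Pcgf6-/- and 139 and 41 in Pcgf3/5/6-/-, and no count left the 1.5 times range.

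The share of regions with RING1B in Pcgf6-/- was 0.617% in the set of 162 and 4.95% with knockout peaks of −log10 q of 10 or more, a setting chosen after seeing the data. In Pcgf3/5/6-/- it was 0% in the set of 54, 0% in the set of 162 and 0.26% when 50% of the region had to be covered. Of 75 alternatives of the other shares, 31 lay outside the counting interval, and each list's length limits what a missing peak can show.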
